A study of Oryza sativa with 24 samples.

Results

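The DREB1 genes of rice, also called CBF genes, encode transcription factors of the AP2/ERF family. The 7 members described here, of 55801 genes listed, were DREB1A, DREB1B, DREB1H, DREB1C, DREB1E, DREB1G and DREB1F. They were chosen by family, but with FPKM values of these libraries already known, in particular their height in Fix T4. Their levels are therefore given as a description and without a test. In rice leaves, DREB1 transcripts are scarce in warm, unstressed plants and accumulate soon after the onset of cold. The proteins bind DRE elements in the promoters of genes for dehydrins, proline synthesis and sugar metabolism, and rice that overexpresses DREB1A or DREB1B survives cold, drought and salt better. In Arabidopsis, ICE factors and calcium-dependent kinases act upstream of the CBF genes, and the circadian clock sets the time of day at which cold induces them.

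RNA was sequenced from flag leaves at heading in plants of a paddy field in Hangzhou. CY84 is the unedited hybrid Chunyou84, from the male-sterile japonica mother Chunjiang 16 A and the indica-japonica intermediate father C84. Fix T0 is the edited founding generation in the same hybrid background, in which REC8, PAIR1, OSD1 and MTL had been edited so that the plant sets clonal seed, and it was kept alive by its roots, as CY84 was. Fix T1, Fix T2, Fix T3 and Fix T4 are the following diploid generations, raised from seed through a seedling stage in nutrient solution and then set out in the field. Each of the 6 groups had 2 libraries, 12 in all. Whether the libraries of a group came from separate plants is not in the labels, and each p-value below is taken over the spread of these libraries, which may be technical. All Fix groups descend from 1 line, and the edits, the mode of raising and the generation cannot be told apart where they change together. Sampling dates, times of day and field temperatures are not given in the labels.

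Expression is given as FPKM, a fragment number divided by gene length and by the mapped fragments of its library, so that levels of different genes can be compared. Summed FPKM ranged from 680768 to 767790 per library, and the relative depth read from the spacing of low values ranged from 0.674 in Fix T3 replicate 2 to 1 in CY84 replicate 1, with 0.799 and 0.775 in Fix T4. The leaf genes CAB1R and CAB2R (chlorophyll-binding proteins) stood at 5464 FPKM or more in every library, the anther gene C6 and the root gene LSI2 were at 0 in all 12, the other root gene, LSI1, ranged from 18.6 to 72.8 FPKM with 33.03 and 32.89 in Fix T4, and the seed storage gene GLUA1 reached at most 0.453 FPKM. The other anther gene, CYP703A3, reached at most 0.338 FPKM, with 0.338 and 0.256 in Fix T4. PAIR1, a meiotic gene, reached at most 0.0856 FPKM and cannot check the edits in leaf. RCA, the Rubisco activase gene, was lowest in Fix T4 replicate 1, at 3661 FPKM, and stood at 4273 FPKM in Fix T4 replicate 2. Its median over the 12 libraries was 6545 FPKM and its highest value 11238 FPKM. CAB1R and CAB2R in Fix T4 lay within the range of the other libraries. Whether the DREB1 levels are tied to the RCA levels was not tested. In bulk leaf RNA, fewer cells of a type and less RNA per cell cannot be told apart.

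In flag leaves of Fix T4, 6 of the 7 DREB1 genes stood above their level in every other library, and DREB1F was at 0 in all 12. The 6 genes together summed to 77.4 ± 13.4 FPKM in Fix T4 (SD, n = 2), against at most 7.17 FPKM in any of the other 10 libraries. DREB1B was the most abundant, followed by DREB1A and DREB1H. Among the 18871 genes with at least 1 FPKM in at least 2 libraries, 8.15% had both Fix T4 libraries above the other 10. Of the members, 5 of 7 met that level filter, DREB1H, DREB1E and DREB1G only through the Fix T4 libraries, and nothing is read from the members' count, since it is part of how they were chosen.

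DREB1A (LOC_Os09g35030, chromosome 9), the family member best known for cold induction in rice, stood at 0.966 and 0.545 FPKM in CY84, 0.940 and 0.110 in Fix T0, 0.312 and 1.90 in Fix T1, 1.48 and 2.52 in Fix T2, 0.865 and 0.667 in Fix T3, and 25.0 and 21.5 in Fix T4. The lower Fix T4 library was 8.51 times the highest of the other 10, and the Fix T4 libraries differed from each other by 1.17 times. Between Fix T4 and Fix T0 the log2 difference of FPKM + 1 was 4.04 (SE 0.41), and because of the added 1 such differences are too small for genes near 0. DREB1A thus lay below 1 FPKM in every library of CY84, Fix T0 and Fix T3, with loose pairs in Fix T0 and Fix T1, and its Fix T4 pair was tight and far above the rest.

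DREB1B (LOC_Os09g35010, chromosome 9), which in rice overexpression lines also gives cold tolerance, stood at 0.351 and 0.329 FPKM in CY84, 0 and 0.632 in Fix T0, 0.189 and 4.07 in Fix T1, 2.03 and 3.83 in Fix T2, 0 and 0.836 in Fix T3, and 42.0 and 36.3 in Fix T4. The Fix T4 libraries were close to each other, and the lower of them was 8.92 times the highest library elsewhere, Fix T1 replicate 2. The log2 difference from Fix T0 was 4.97 (SE 0.56). With a mean of 39.1 ± 3.98 FPKM (SD, n = 2), DREB1B ranked 2696th among the 25231 genes above 0 in Fix T4, while DREB1A ranked 4273rd.

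DREB1H (LOC_Os09g35020, chromosome 9) lies between these genes. It stood at 0.123 and 0.173 FPKM in CY84, 0 and 0.422 in Fix T0, 0.212 and 1.197 in Fix T1, 0.285 and 0.326 in Fix T2, 0.323 and 0.150 in Fix T3, and 10.8 and 5.47 in Fix T4. Its Fix T4 pair was looser, with 1.97 times more in replicate 1, and the lower library was still 4.57 times the highest elsewhere. The log2 difference from Fix T0 was 2.87 (SE 0.37).

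**Figure D1:**
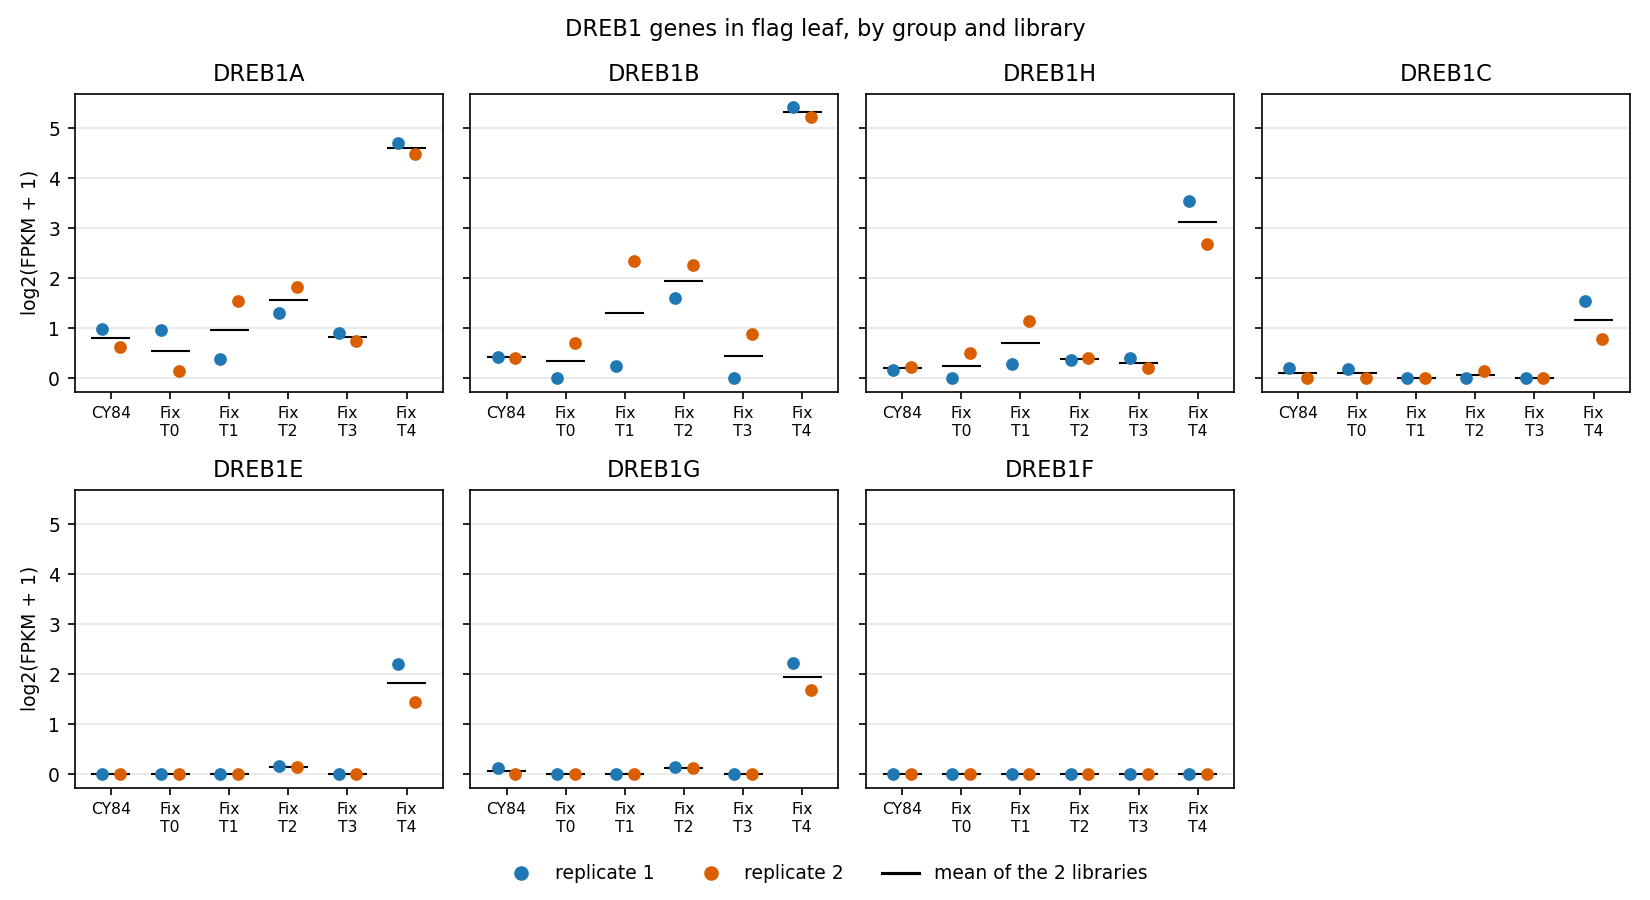
Level of each DREB1 gene on the log2(FPKM + 1) scale in the 6 groups, 1 point per library and a bar at the mean of the 2 libraries. The Fix T4 points lie above all others for 6 genes, DREB1F is at 0 throughout, and DREB1A and DREB1B are next highest in Fix T1 replicate 2 and both Fix T2 libraries.

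The other 4 genes lie alone on other chromosomes and were near 0 outside Fix T4. DREB1G (LOC_Os02g45450, chromosome 2) stood at 3.65 and 2.20 FPKM in Fix T4, was at 0 in 7 of the other 10 libraries and reached at most 0.106 FPKM there. DREB1E (LOC_Os04g48350, chromosome 4) stood at 3.63 and 1.73 FPKM in Fix T4 and at 0.116 and 0.109 in Fix T2, and was at 0 in the other 8 libraries. DREB1C (LOC_Os06g03670, chromosome 6), which in rice is also known for effects of its overexpression on flowering time and nitrogen use, stood at 1.90 and 0.711 FPKM in Fix T4. It was at 0 in 7 of the other 10 libraries and at most 0.156 FPKM in the remainder. For these genes the lower Fix T4 library was 20.8, 14.8 and 4.56 times the highest library elsewhere. No log2 difference from Fix T0 is given for DREB1E and DREB1G, since both were listed at 0 in Fix T0. None is given for DREB1C, which did not meet the level filter. DREB1F (LOC_Os01g73770, chromosome 1), known in rice from salt and drought tolerance of overexpressing plants, was listed at 0 in every library.

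The members differed in level within Fix T4. DREB1B was above DREB1A in both libraries, DREB1A above DREB1H, and DREB1H above the 3 lower genes. DREB1G, DREB1E and DREB1C followed with means of 2.93 ± 1.02, 2.68 ± 1.35 and 1.31 ± 0.840 FPKM (SD, n = 2). DREB1G and DREB1E overlapped each other, and so did DREB1E and DREB1C. All 6 were higher in replicate 1 than in replicate 2 of Fix T4, by 1.15 times for DREB1B up to 2.67 times for DREB1C.

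The groups fell in the order Fix T4, Fix T2, Fix T1, Fix T3, CY84 and Fix T0 by summed FPKM of the 7 genes. The means were 77.4 ± 13.4, 5.50 ± 2.099, 3.94 ± 4.57, 1.42 ± 0.329, 1.37 ± 0.452 and 1.12 ± 0.0573 FPKM (SD, n = 2 each). Only the step from Fix T4 to Fix T2 was free of overlap between neighbours in this order. The Fix T2 libraries, at 4.01 and 6.98 FPKM, lay inside the range of Fix T1, whose libraries stood at 0.713 and 7.17 FPKM. The Fix T3, CY84 and Fix T0 libraries all lay between 1.05 and 1.69 FPKM.

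Outside Fix T4, the same 3 libraries were the highest for DREB1A, for DREB1B and for the sum, namely Fix T1 replicate 2 and both Fix T2 libraries. Fix T1 replicate 1 was the lowest of all 12 by the sum, so the Fix T1 pair was split from end to end of the range outside Fix T4. For DREB1H only Fix T1 replicate 2 stood out, at 1.197 FPKM, and the Fix T2 libraries lay among the rest. The log2 differences between Fix T2 and Fix T0 were 1.01 (SE 0.41) for DREB1A, 1.58 (SE 0.56) for DREB1B and 0.13 (SE 0.37) for DREB1H. They ranged from 0.61 to 1.41, 1.23 to 1.94 and -0.12 to 0.38 when 1 library was left out, DREB1H falling below 0 without Fix T0 replicate 1. With a pseudocount of 0.1 they were 2.12, 3.42 and 0.83. The whole transcriptome of Fix T1 replicate 2 correlated with Fix T4 replicate 2 at r = 0.973 across the tested genes, against 0.970 between the Fix T4 libraries, and the part of this in the DREB1 levels was not tested.

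**Figure D2:**
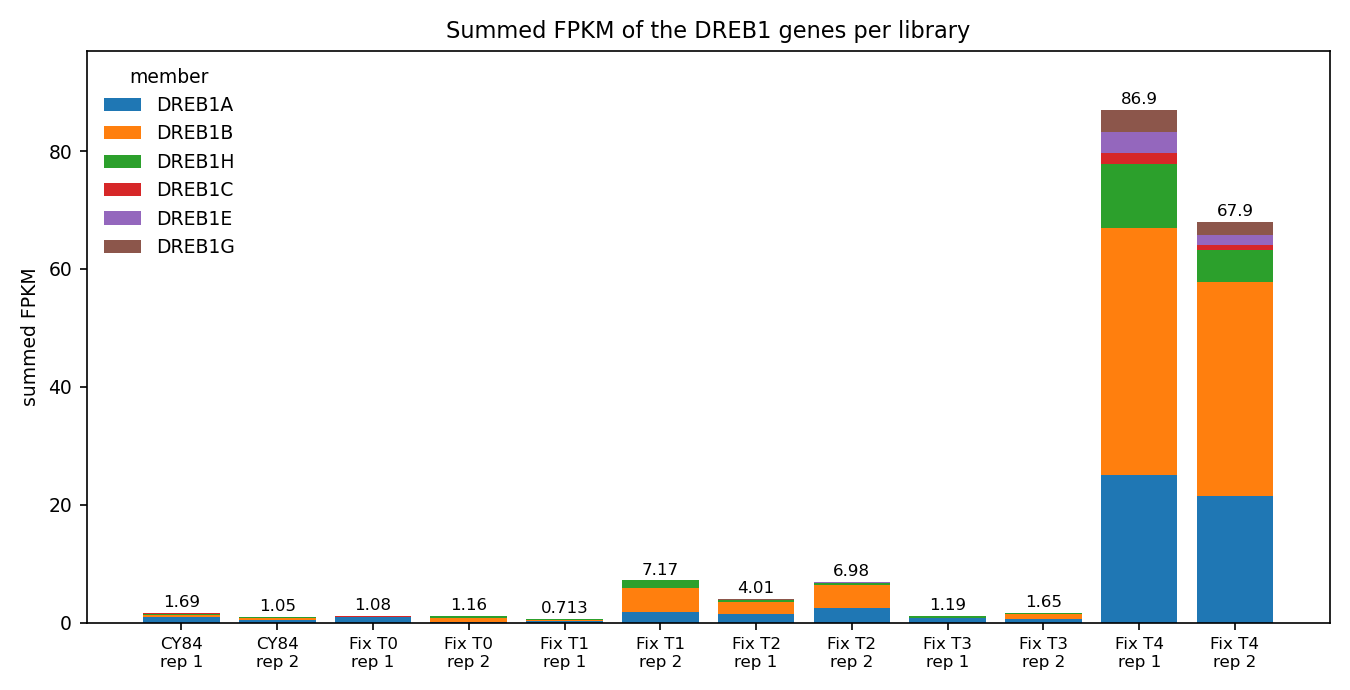
Summed FPKM of the DREB1 genes in each of the 12 libraries, stacked by gene, with the sum printed above each bar. The Fix T4 bars reach 86.9 and 67.9 FPKM, while the next highest, Fix T1 replicate 2, reaches 7.17 FPKM.

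In the libraries where the sum was highest, DREB1B held the largest part of it and DREB1A the next. DREB1B held 48.3% and 53.5% of it in Fix T4, 56.8% in Fix T1 replicate 2, and 50.6% and 54.9% in Fix T2. DREB1A held 28.8% and 31.6% in Fix T4, 26.5% in Fix T1 replicate 2, and 36.8% and 36.1% in Fix T2. DREB1H held 12.4% and 8.06% in Fix T4, 16.7% in Fix T1 replicate 2, and 7.11% and 4.67% in Fix T2. DREB1C, DREB1E and DREB1G were at 0 in Fix T1 replicate 2. The low library Fix T1 replicate 1 had another order, with DREB1A at 43.8%, DREB1H at 29.7% and DREB1B at 26.5%, but of a sum under 1 FPKM. Fix T3 replicate 2, with a sum of only 1.65 FPKM, had DREB1B at 50.6%, DREB1A at 40.4% and DREB1H at 9.04%. DREB1A led in both CY84 libraries, at 57.3% and 52.1%, in Fix T0 replicate 1, at 86.8%, and in Fix T3 replicate 1, at 72.8%. Fix T0 replicate 2 had DREB1B at 54.3%, DREB1H at 36.3% and DREB1A at 9.48%. The sums in these libraries were at most 1.69 FPKM. Outside the libraries with a high sum, the order was thus shared only by Fix T3 replicate 2.

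DREB1B, DREB1H and DREB1A are neighbours on chromosome 9, with 0 annotated genes between each pair in the RefSeq gene order. The sources used here do not say how reads matching several of these related copies were assigned, so the split among the 3 is less certain than their total. The 4 loci listed next to the group on its lower-numbered side, LOC_Os09g34980 to LOC_Os09g35000, ranged from 0 to 3.20 FPKM. They reached at most 1.99 FPKM in Fix T4, and for 0 of the 4 did both Fix T4 libraries exceed the other 10. The high level in Fix T4 therefore did not extend to those listed neighbours.

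The cold pathway around the DREB1 genes was followed through 6 lists of named genes, with 43 usable names, of which 37 passed the level filter. Each gene was tested with limma across all 18871 genes, and passing means a p under 0.05 after Benjamini-Hochberg adjustment. In Fix T4 against Fix T0, 2 of the 37 passed, both higher, where 1.05% of all tested genes passed. They were MPK3 and JAZ10. The median log2 difference of the 37 was 0.12, against 0.16 for all tested genes. The count was 0 without either Fix T0 library and without either Fix T4 library, in fits where the lone library is assumed to vary like the other groups. The log2 differences were then 1.71 to 1.91 for MPK3 and 2.75 to 2.97 for JAZ10.

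Among upstream regulators, MPK3 was the gene that passed. It encodes a mitogen-activated protein kinase that in rice phosphorylates and stabilises an ICE-type factor in the cold. MPK3 stood at 7.12 and 4.48 FPKM in CY84, 3.85 and 4.58 in Fix T0, 8.25 and 7.56 in Fix T1, 4.98 and 5.76 in Fix T2, 11.4 and 7.51 in Fix T3, and 16.2 and 18.4 in Fix T4. Both Fix T4 libraries were above the other 10. The log2 difference from Fix T0 was 1.81 (SE 0.29, limma adjusted p = 0.0124), and without 1 of the 4 compared libraries the adjusted p rose to between 0.0873 and 0.175. The other 7 tested upstream genes did not pass. Among them were the kinase genes SAPK8, at 30.7 ± 0.728 against 28.2 ± 1.83 FPKM in Fix T0, and MPK6, at 25.7 ± 1.58 against 22.3 ± 3.44 FPKM (SD, n = 2 each). COLD1, a chilling-sensing regulator of G-protein signalling in rice, was at 6.84 ± 1.77 against 6.26 ± 0.417 FPKM. ICE1, ICE2, HOS1, PIL14 and PIL16 were also listed, but their names could not be matched to the annotation. The ICE genes were therefore not tested, nor were the other 3.

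**Figure D3:**
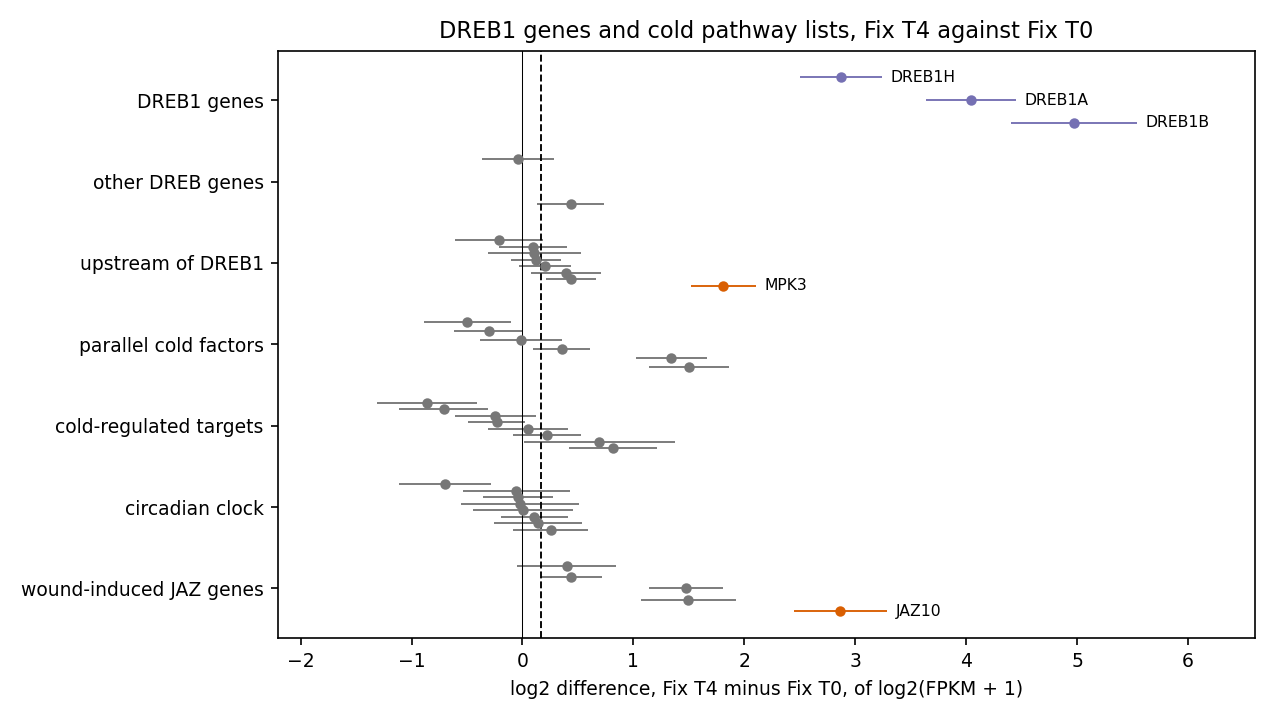
Log2 difference between Fix T4 and Fix T0 on the log2(FPKM + 1) scale with its standard error, 1 point per gene. Shown are the DREB1 genes that met the level filter and were above 0 in Fix T0 (purple, no test). The 37 tested genes of the 6 lists are orange where the adjusted p was under 0.05 and grey otherwise. The dashed line is the median of all tested genes, 0.16, and the cold-regulated targets lie on both sides of it while DREB1H, DREB1A and DREB1B lie at 2.87, 4.04 and 4.97.

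Of the targets, 0 of 8 tested passed in Fix T4 against Fix T0, where 1.05% of all tested genes passed. Of the 10 usable targets, 0 had both Fix T4 libraries above the other 10, where 8.15% of all tested genes did. A count of 0 in so short a list is near those shares, here and in the lists below. WSI724, GOLS1, GOLS2 and TPS1 were also listed, but their names could not be matched to the annotation and they were not tested. LIP9, a dehydrin gene that DREB1A overexpression raises in rice, stood at 145.6 and 170.2 FPKM in CY84, 98.5 and 117.3 in Fix T0, 121.3 and 128.4 in Fix T1, 104.2 and 159.2 in Fix T2, 106.7 and 142.7 in Fix T3, and 96.5 and 86.5 in Fix T4. Its Fix T4 libraries were the lowest of the 12, with a log2 difference from Fix T0 of -0.23 (SE 0.26, limma adjusted p = 0.957). P5CS1, for proline synthesis, was at 13.5 ± 0.644 FPKM in Fix T4 and 13.01 ± 0.986 in Fix T0 (SD, n = 2 each), and P5CS2 was at 2.51 ± 0.798 and 1.97 ± 0.0399 FPKM. The dehydrin genes RAB16A, RAB16B, RAB16C and RAB16D and the late embryogenesis gene LEA3 ranged from 0 to 3.85 FPKM in Fix T4. The 10 targets summed to 105.2 and 119.2 FPKM in Fix T4 and to between 115.7 and 192.6 FPKM in the other libraries. Most of that sum was LIP9 in every library, so it mainly repeats the LIP9 levels. P5CS1, the next most abundant target, stood at 13.02 and 13.93 FPKM in Fix T4 and between 2.89 and 13.71 elsewhere. A sum without LIP9 was not taken, so a low level of the targets as a group is not shown. The median log2 difference of the 8 was -0.09, against 0.16 for all tested genes.

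Of the other DREB genes 2 of 4 were tested, and 0 passed. DREB2A, for a factor of drought and heat responses, stood at 4.48 ± 1.21 FPKM in Fix T4 and 3.01 ± 0.321 in Fix T0, and DREB2B at 35.5 ± 4.14 and 36.4 ± 0.237 FPKM (SD, n = 2 each). The further family members DREB1I and DREB1J, below the level filter and neighbours on chromosome 8, reached at most 0.267 and 0.756 FPKM in any library. The highest DREB1J value was in Fix T4 replicate 1, while Fix T4 replicate 2 was at 0.

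The circadian clock list held 8 tested genes, and 0 passed in Fix T4 against Fix T0, with a median log2 difference of -0.01. PRR95 was at 291.1 ± 93.6 against 282.7 ± 23.8 FPKM in Fix T0, GI at 185.9 ± 65.8 against 185.2 ± 10.96, and PRR73 at 62.9 ± 7.70 against 63.8 ± 5.33 FPKM (SD, n = 2 each). The Fix T4 libraries differed from each other in clock genes, with 553 and 831 FPKM summed over the 8, inside the range of 264 to 842 in the other libraries. LHY, a morning factor of the clock, stood at 31.4 FPKM in Fix T4 replicate 1 and 53.3 in replicate 2. The times of day at which leaves were taken are not given, and the part of clock phase in the DREB1 levels was not tested.

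JAZ genes encode repressors of jasmonate signalling that wounding induces, and in Arabidopsis some JAZ proteins bind ICE factors. JAZ10 stood at 1.61 and 1.10 FPKM in CY84, 0.874 and 0.705 in Fix T0, 0.617 and 2.46 in Fix T1, 0.489 and 1.67 in Fix T2, 3.60 and 1.66 in Fix T3, and 11.1 and 13.05 in Fix T4. Its log2 difference between Fix T4 and Fix T0 was 2.86 (SE 0.42, limma adjusted p = 0.00791), and without 1 of the 4 compared libraries the adjusted p rose to between 0.0598 and 0.124. The other 4 tested JAZ genes did not pass. JAZ12 was at 3.44 ± 1.49 against 0.553 ± 0.0757 FPKM (SD, n = 2 each, adjusted p = 0.0648), and JAZ11 at 3.08 ± 0.450 against 0.539 ± 0.762 FPKM (adjusted p = 0.178). In 5 of the 7 JAZ genes, and in 3 of the 5 tested, both Fix T4 libraries were above the other 10, where 8.15% of all tested genes were, and the list summed to 130.3 and 159.4 FPKM there against 52.4 to 120.8 elsewhere. Most of that sum was JAZ7 and JAZ6. JAZ7 stood at 78.2 and 89.5 FPKM in Fix T4 and at most 75.3 elsewhere. JAZ6, at 35.3 and 46.9 FPKM in Fix T4, overlapped the others, which reached 43.4. JAZ9 and JAZ13, below the level filter, reached at most 0.426 and 1.57 FPKM in any library. JAZ9, JAZ11 and JAZ10 lie side by side on chromosome 3, so the split of their reads carries the same uncertainty as for the DREB1 group.

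Among the parallel cold factors, which act in the cold beside DREB1 genes, 0 of 6 passed in Fix T4 against Fix T0. MYB2, a factor whose overexpression gives rice cold, salt and drought tolerance, stood at 12.01 and 7.33 FPKM in Fix T4 and between 1.69 and 3.42 in the other 10 libraries (adjusted p = 0.0780). MYB4, a cold-induced factor of rice, stood at 2.69 and 5.595 FPKM in Fix T4 and between 0.137 and 0.997 elsewhere (adjusted p = 0.0839). It met the level filter only through the Fix T4 libraries. MYBS3, which represses DREB1 genes in the later cold response of rice, was at 47.9 ± 14.3 FPKM in Fix T4 and 58.5 ± 10.9 in Fix T0, and NAC6 was at 108.6 ± 64.1 and 140.0 ± 9.70 FPKM (SD, n = 2 each).

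**Figure D4:**
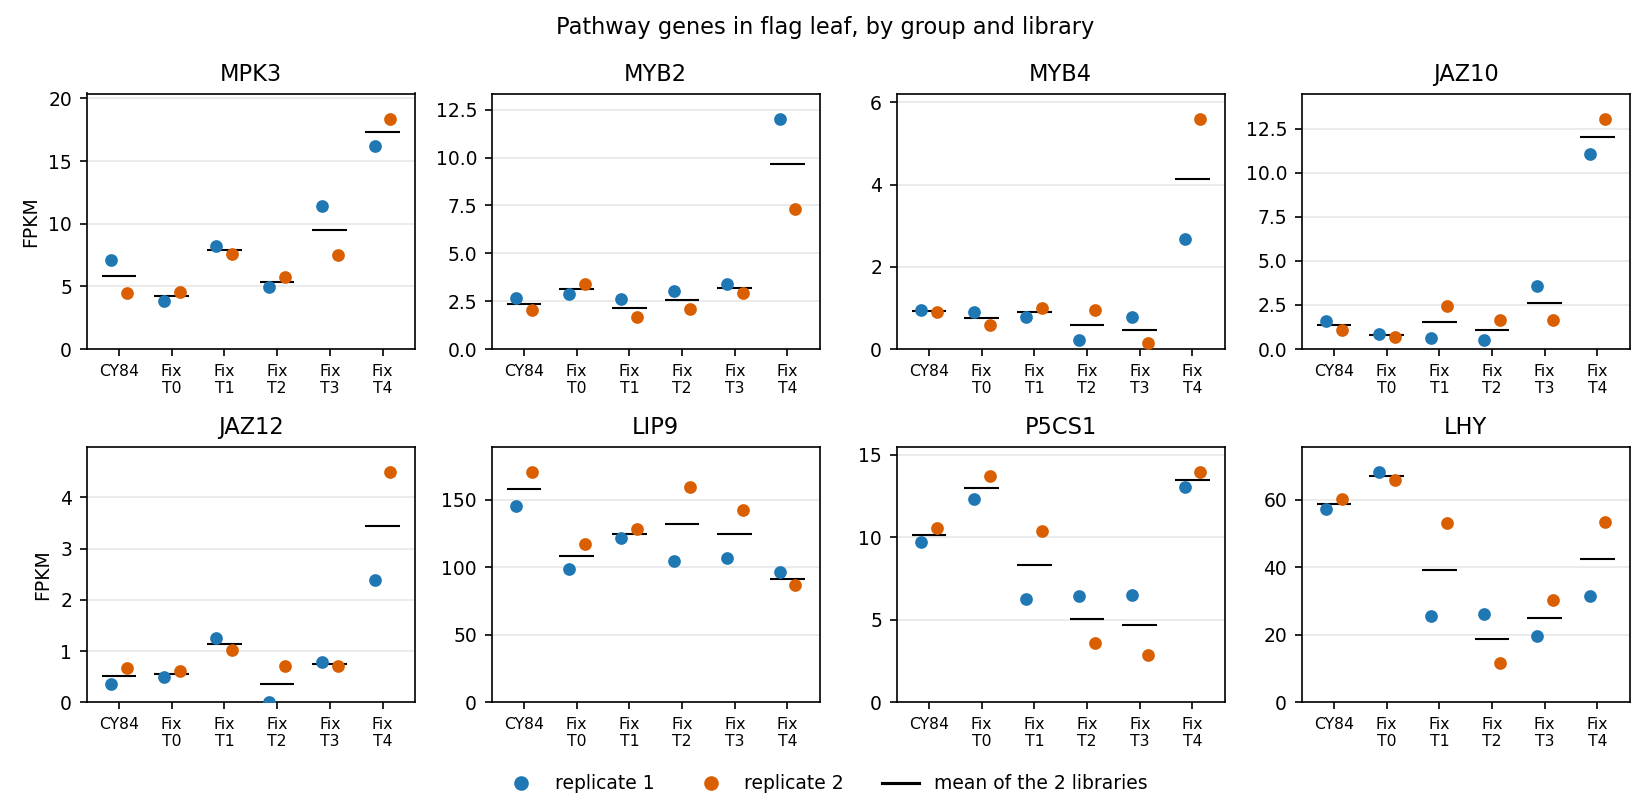
FPKM of 8 pathway genes in the 6 groups, 1 point per library and a bar at the mean of the 2 libraries, with a separate linear axis for each gene. MPK3, MYB2, MYB4, JAZ10 and JAZ12 have both Fix T4 libraries above the other 10, while LIP9, P5CS1 and LHY do not.

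Fix T4 was also set against the mean of Fix T1, Fix T2 and Fix T3, all raised from seed, in a comparison added after the members' levels had been seen. Here 4 of the 37 pathway genes passed, all higher, where 0.795% of all tested genes passed. They were MYB2 (9.67 ± 3.31 against 2.63 ± 0.647 FPKM, limma adjusted p = 0.0224), MYB4 (4.14 ± 2.06 against 0.645 ± 0.373, adjusted p = 0.0309), JAZ10 (12.1 ± 1.41 against 1.75 ± 1.17, adjusted p = 0.0110) and JAZ12 (3.44 ± 1.49 against 0.744 ± 0.421, adjusted p = 0.0470), each SD with n = 2 and n = 6. The log2 differences were 1.54 (SE 0.26), 1.62 (SE 0.30), 2.35 (SE 0.34) and 1.35 (SE 0.27). MYB4 met the level filter only through the Fix T4 libraries, so its test is not independent of that filter. MPK3 missed the threshold (log2 difference 1.13, SE 0.24, adjusted p = 0.0550). The targets again held 0 passing genes, with a median log2 difference of 0.04 where the median of all tested genes was 0.36. The DREB1 genes in the same comparison differed by 3.48 (SE 0.33) for DREB1A, 4.10 (SE 0.46) for DREB1B and 2.66 (SE 0.30) for DREB1H. None is given for DREB1E and DREB1G, which were at 0 in Fix T1 and Fix T3, so that the added 1 would set its size. DREB1C, below the level filter, was left out as well.

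These counts changed with the libraries in the fit. Without either Fix T4 library 0 of the 37 passed, in fits where the lone Fix T4 library is assumed to vary like the other groups. The log2 differences were then 2.24 to 2.46 for JAZ10, 1.22 to 1.86 for MYB2, 1.20 to 2.04 for MYB4 and 1.00 to 1.70 for JAZ12. Without Fix T3 replicate 2 there was 1, and without Fix T1 replicate 2 or Fix T2 replicate 1 there were 10 and 11, where 23.7% and 9.5% of all tested genes passed. Leaving out either CY84 or either Fix T0 library left 2. The median shift of all genes, 0.36, fell to 0.01 after rescaling by median-of-ratios factors, and 1 of the 37 then passed.

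In the remaining comparisons 0 of the 37 pathway genes passed, by limma with adjusted p. This held for Fix T0 against CY84, where 0.0901% of all tested genes passed, and for Fix T1, Fix T2 and Fix T3 against Fix T0, where 0.0795%, 0.0901% and 0.291% passed. It also held for the mean of the Fix groups against CY84, where 0.747% passed. At an unadjusted p under 0.05 the 37 held 1, 1, 8, 5 and 9 genes in these 5 comparisons. As shares of the 37 these were 2.7%, 2.7%, 21.6%, 13.5% and 24.3%, against 3.87%, 5.04%, 19.0%, 16.4% and 13.1% of all tested genes. All 8 in Fix T2 were lower, as were 3222 of the 3584 among all tested genes. Without Fix T2 replicate 1, 9 of the 37 passed in Fix T2 against Fix T0, all lower, beside 1066 of the 18871, of which 916 were lower. Without Fix T1 replicate 1 or Fix T1 replicate 2 there were 2 each, beside 397 and 367 of all tested genes. An F test of any difference among the 6 groups passed MPK3 (adjusted p = 0.0409) and JAZ10 (adjusted p = 0.0207), 2 of the 37, where 1.91% of all tested genes passed. It passed 0 of the 37 without either library of CY84, Fix T0 or Fix T4, 1 without Fix T2 replicate 2 or Fix T3 replicate 1, and 7, 8 and 6 without Fix T1 replicate 1, Fix T1 replicate 2 and Fix T2 replicate 1, where 10.3%, 13.1% and 3.71% of all tested genes passed.

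The genes whose levels most resembled the DREB1 sum were ranked by Pearson r over the 12 libraries, which share the high Fix T4 pair. Of 18866 other genes, 5 had r of at least 0.95 and 38 of at least 0.9, and 1 had r of -0.9 or below. The first was LOC_Os02g52170, with r = 0.978 over 12 libraries and 0.882 over the 10 without Fix T4. It stood at 3.05 and 3.47 FPKM in Fix T4, at 0.693 in Fix T1 replicate 2, at 0.522 and 0.892 in Fix T2, and at 0.311 or less in the others. The next was LOC_Os09g28440, with r = 0.967 and 0.849 without Fix T4, at 8.89 and 6.07 FPKM in Fix T4 and at most 0.515 elsewhere. Both genes met the level filter only through the Fix T4 libraries, which also set the DREB1 profile. Their r without Fix T4 rests on values of these genes under 1 FPKM. The files and the annotation used pair no name with these identifiers. Of the first 5 genes for the sum and the first 5 for the mean of the 3 chromosome 9 genes, 3 were shared.

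The lowest r was that of LOC_Os03g44380, at -0.914 and, without Fix T4, -0.670. It stood at 7.44 and 6.66 FPKM in Fix T4 and between 9.18 and 14.5 in the other libraries. Within the pathway lists JAZ10 was most like the DREB1 sum, at rank 64 with r = 0.870, followed by MYB4 at rank 105 with r = 0.811. Without the Fix T4 libraries these values were 0.257 and 0.0529, and those of MYB2, JAZ12 and MPK3 were -0.562, -0.134 and -0.00176.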

How the data were processed

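Flag leaf RNA-seq of 12 libraries in 6 groups was used. The authors deposited FPKM values in 1 table. The submitters' processing notes name HISAT2 2.1.0, DESeq2 1.30.1, featureCounts 1.6.4, Bismark 0.23.0, StringTie 1.3.4d, fastp, Trimmomatic 0.39 and FastQC, without the step each served. The genome build is not given in the sources here. The table has 20 more columns without names, which were left out, as were 12 bisulfite samples, not analysed here.

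Of 55801 genes, 26866 had no value above 0. The 18871 with at least 1 FPKM in at least 2 libraries were fitted as log2(FPKM + 1) with limma 3.58.1 in R 4.3.3, a mean per group and 6 residual degrees of freedom. The fit was tested on simulated data. Only FPKM was used, so the depth in reads is unknown and counting intervals cannot be given. The table holds MSU identifiers only. Names were paired with them by hand and kept where chromosome and gene order matched the RefSeq annotation, which left 43 of 59 pathway names usable. Besides the upstream and target genes named above, DREB1D, ZFP182, ZFP252, ZFP179, SNAC1, PRR59 and JAZ8 were not kept. Of the edited genes, REC8, OSD1 and MTL were not kept by this check and are not reported.

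The members, the lists and the added comparison of Fix T4 with Fix T1 to T3 were chosen with earlier results of these data known. Named were all members, list genes that passed in any comparison and otherwise the 3 most abundant of a list, plus the first 5 and last 3 genes by likeness. Of the likeness genes only 3 identifiers are printed. COLD1, LHY, JAZ11, the RAB16 genes, LEA3 and DREB1I were named after their values were seen. Equally numbered libraries deviated together (correlation over 0.1) in 2 of 15 pairs of groups, so the numbers do not pair the libraries. Alternatives were a pseudocount of 0.1, no filter, median-of-ratios rescaling, a replicate block, each library left out, Fix T1 and Fix T2 left out, only the compared groups, and library weights. The last was added after seeing the data, as was likeness without Fix T4. Promoter and protein sequences were not used here.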

Additional observations from a re-analysis of the deposited data

How the results depend on the processing

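Under the 17 alternatives run, the log2 difference between Fix T4 and Fix T0 ranged from 3.64 to 5.64 for DREB1A. For DREB1B it ranged from 4.62 to 7.18, and for DREB1H from 2.44 to 5.09. These genes were chosen with their height in Fix T4 known, so a difference above 0 was fixed beforehand and is no support. Counts of passing genes also changed, and the cause was not tested. With no filter, passing genes went from 17 to 33 for Fix T0 against CY84, 199 to 112 for Fix T4 against Fix T0, 141 to 93 for the Fix mean against CY84, 150 to 87 for Fix T4 against Fix T1 to T3, and 360 to 177 for any difference. A pseudocount of 0.1 gave 8 (from 15) for Fix T1, 11 (from 17) for Fix T2 and 72 for Fix T4 against Fix T0, 0 for Fix T4 against Fix T1 to T3, and 222 for any difference. Rescaling gave 152 (from 55) for Fix T3 against Fix T0 and 43 for Fix T4 against Fix T1 to T3, of which 36 were higher and 7 lower (from 146 and 4). Library weights gave 214 for Fix T0 against CY84, 9, 751 and 650 for Fix T1, Fix T3 and Fix T4 against Fix T0, 2052 for the Fix mean, 1959 for Fix T4 against Fix T1 to T3 and 1735 for any difference. Without the 4 Fix T1 and Fix T2 libraries there were 36 for Fix T0 against CY84, 1628 and 420 for Fix T3 and Fix T4 against Fix T0, 509 for the Fix mean and 2813 for any difference. With only the compared groups there were 3, 4, 6 and 421 for Fix T1 to Fix T4 against Fix T0 and 23 for Fix T4 against Fix T1 to T3. For the Fix mean that alternative equals the fit used and was not run again.

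Leaving out each library gave 5 to 22 genes for Fix T0 against CY84, 6 to 152, 3 to 1066, 6 to 335 and 30 to 314 for Fix T1 to Fix T4 against Fix T0, 10 to 358 for the Fix mean, 11 to 4473 for Fix T4 against Fix T1 to T3, and 108 to 2463 for any difference. Of the 37 pathway genes it gave 0 to 0 for Fix T0 against CY84, for Fix T1 and Fix T3 against Fix T0 and for the Fix mean, 0 to 9 for Fix T2 and 0 to 3 for Fix T4 against Fix T0, 0 to 11 for Fix T4 against Fix T1 to T3 and 0 to 8 for any difference.

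Of the 37 pathway genes, those passing for Fix T4 against Fix T0 went from 2 to 4 without Fix T1 and Fix T2 and to 6 with library weights. For Fix T4 against Fix T1 to T3 they went from 4 to 0 with a pseudocount of 0.1 or only the compared groups, 2 without a filter, 1 with rescaling and 7 with weights. For any difference they went from 2 to 0 with a pseudocount of 0.1 or no filter, 1 with rescaling, 11 without Fix T1 and Fix T2, and 9 with weights. For Fix T3 against Fix T0 there were 6 without Fix T1 and Fix T2 and 2 with weights, and for the Fix mean 1 and 4, from 0. MPK3 and JAZ10 each passed in 15 of 19 alternatives for Fix T4 against Fix T0. For Fix T4 against Fix T1 to T3, JAZ10 passed in 14 of 18, MYB2 in 11, MYB4 in 6 and JAZ12 in 5, with adjusted p of up to 0.239, 0.226, 0.524 and 0.531.

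With the replicate number as a block, 11 genes passed for Fix T2 against Fix T0, 90 for Fix T4 against Fix T1 to T3 and 220 for any difference, and of the pathway genes 2 and 1 in the last pair of tests. The block moved no other count by over 1.5 times, and the numbers are not a pairing by the design. Over 16 alternatives the likeness of LOC_Os02g52170 to the DREB1 sum ranged from 0.796, by Spearman's rho, to 0.985. Whether it stayed first in them was not followed. Differences in the DREB1 genes among the groups other than Fix T4 rest on 2 libraries each, on values near 0 and on pairs as wide as that of Fix T1.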
